A study of Mus musculus with 33 samples.

Results

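Dpf3, Myo5b, Apln and Luzp2 were 4 genes chosen by their read counts in the hippocampal CA1 region, for a large fall in APP mice given vehicle relative to WT mice given vehicle. They were taken from 38355 genes in the count files, of which 16962 passed the filter on low counts, all 4 of these genes included. The levels in those vehicle groups chose the genes, so that contrast is described below and not tested. What the choice did not use is how the genes stood in APP mice given JQ1 and in a separate experiment on young mice, where 18420 of 40678 loci, again with all 4 genes, were tested.

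The RNA-Seq data came from CA1 tissue dissected from mice of 2 experiments. The aged mice were 8 to 10 months old, carried the label APP/PS1-21 on a C57B/6 background, and formed the groups WT_veh (n = 4, replicates 1, 3, 4 and 5, with replicate 2 not analysed here), APP_veh (n = 6) and APP_jq1 (n = 6). APP_jq1 mice received JQ1, a small molecule that displaces bromodomain proteins of the BET family from acetylated histones, at 50 mg/kg i.p. for 10 days, and both vehicle groups received 10% DMSO i.p. for 10 days. The strain label is the same for the WT_veh mice, whose titles alone name them WT, and in the transgenic line the Thy1 promoter drives mutant human APP in neurons. The young mice were C57B/6JRj aged 3 months, given JQ1 at 50 mg/kg (CA1_jq1, n = 8) or 10% DMSO (CA1_veh, n = 8) i.p. for 13 days. The mice were killed on the day after a probe test of spatial memory. The labels treat each mouse as a separate sample.

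The 4 genes belong to unrelated systems. Dpf3 encodes a subunit of the BAF (SWI/SNF) chromatin remodelling complex whose paired PHD fingers bind acetylated and methylated histone tails, and it takes the place of its relatives Dpf1 and Dpf2 in the complex. Myo5b encodes an unconventional myosin motor that carries Rab11-positive recycling endosomes, and with them receptors, along actin, in hippocampal spines among other places. Apln encodes apelin, a secreted peptide that acts through the receptor Aplnr. Luzp2 encodes a leucine zipper protein expressed mainly in the brain, whose function is poorly known.

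The promoters are shown because the 4 genes were chosen for a fall in the same mice, and the letters let their starts be compared. The sequences are from RefSeq on build GRCm38.p6, from 250 bases before to 50 bases after the annotated start, written 5′ to 3′ on the strand of the gene, and 3 of the 4 genes were matched, all but Myo5b. Capitals mark GGGCGG on either strand, the core of a GC box. The windows are chr12:83487687-83487986 on the minus strand for Dpf3, chrX:48034804-48035103 on the minus strand for Apln and chr7:54834995-54835294 on the plus strand for Luzp2. The RefSeq start used for Luzp2 lies upstream of the start in the GENCODE annotation given below, so that its window ends before the latter.
Dpf3: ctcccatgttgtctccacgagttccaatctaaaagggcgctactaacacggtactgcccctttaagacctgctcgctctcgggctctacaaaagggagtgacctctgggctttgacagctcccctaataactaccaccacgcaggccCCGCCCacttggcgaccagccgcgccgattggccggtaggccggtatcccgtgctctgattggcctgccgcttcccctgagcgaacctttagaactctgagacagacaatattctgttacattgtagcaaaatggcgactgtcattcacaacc
Apln: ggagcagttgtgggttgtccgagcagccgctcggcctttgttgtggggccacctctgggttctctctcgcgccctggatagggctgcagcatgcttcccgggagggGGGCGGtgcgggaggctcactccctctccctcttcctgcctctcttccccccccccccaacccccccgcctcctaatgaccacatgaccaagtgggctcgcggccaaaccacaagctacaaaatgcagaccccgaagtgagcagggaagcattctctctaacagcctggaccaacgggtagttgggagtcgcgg
Luzp2: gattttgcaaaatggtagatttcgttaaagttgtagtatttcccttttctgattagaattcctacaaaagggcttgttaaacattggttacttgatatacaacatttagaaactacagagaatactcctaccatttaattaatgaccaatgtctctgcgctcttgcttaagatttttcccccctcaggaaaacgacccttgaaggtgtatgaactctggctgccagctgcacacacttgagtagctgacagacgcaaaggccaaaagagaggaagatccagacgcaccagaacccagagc
Dpf3 and Apln each held 1 GC box core, a motif found in 35.7% of all 32851 promoters of the same length, and Luzp2 held none. The dinucleotide CG occurred 17 times in the Dpf3 window, 15 times in that of Apln and 5 times in that of Luzp2, against a median of 7. The sequence CCAAT, on either strand, occurred 3 times in Dpf3, 2 times in Luzp2 and not in Apln, and 37.4% of all promoters held it. TATAAA (13.6% of all promoters), CACGTG (7.15%), ACGTG (19.6%, with every CACGTG counted there too) and TGACGTCA (1.79%) were searched on both strands and were in none of the 3 windows.

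On the mm10 assembly, Dpf3 (ENSMUSG00000021221) lies on chromosome 12 from 83213745 to 83487716 on the minus strand. Myo5b (ENSMUSG00000025885) lies on chromosome 18 from 74440936 to 74771493 on the plus strand. Apln (ENSMUSG00000037010) lies on chromosome X from 48025146 to 48034853 on the minus strand, and Luzp2 (ENSMUSG00000063297) on chromosome 7 from 54835498 to 55268885 on the plus strand. The genes had in common neither length nor base composition. The spans of Luzp2 (433.4 kb), Myo5b (330.6 kb) and Dpf3 (274 kb) were longer than those of 98.3%, 97.3% and 96.3% of the genes tested, whereas Apln spanned 9.7 kb against a median of 22.0 kb. The exons of Luzp2 held 40.5% G and C, a lower share than in all but 4.53% of the genes tested, and those of the other 3 genes held 51.3% to 53.0% against a median of 50.2%.

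Between 14605459 and 25339482 reads per aged mouse were counted on genes, and the depth of the young mice is unknown, since FPKM hold no counts. CA1 pyramidal markers (7 genes, Wfs1 and Fibcd1 among them) were present in every library, with summed levels of 755.8 to 1227 CPM (reads per 1e+06 reads on genes, after scaling) in aged mice. One library went against its label. App and Thy1, the gene names of that transgene and of its promoter, read 1779 and 819 CPM in the library labelled APP_jq1 replicate 4. The WT_veh mice had 1852 to 1991 and 840.1 to 1070 CPM, and the other 11 libraries labelled APP at least 2068 and 1616 CPM. The 8 listed genes of plaque-associated glia (Cst7, Itgax, Clec7a, Tyrobp, Trem2, Ctsd, C4b and Gfap) summed to 801.2 CPM in that library, against 702.4 to 794.1 CPM in WT_veh mice and 2465 to 7441 CPM in the other libraries labelled APP. It was kept under its label, and the main JQ1 estimates of the 4 genes are given with and without it. Other values that include it, such as those of partners and companions, are mostly given only with it. WT_veh replicate 4 stood apart by choroid plexus genes (6 markers, Ttr among them), which summed to 3180 CPM against 24.2 to 143 CPM in the other 15 aged mice. WT_veh replicate 1 stood apart by CA3 pyramidal markers (6 genes), at 292 CPM against 110.4 to 152 CPM.

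Dpf3, the BAF subunit, showed the largest fall of the 4 genes. In WT_veh mice it read 7.22, 4.79, 4.72 and 4.14 CPM in replicates 1, 3, 4 and 5. The 6 APP_veh mice ranged from 2.26 to 3.31 CPM with a median of 2.46 CPM, so that each of them was below every WT_veh mouse. The means were 5.22 ± 1.37 CPM (SD, n = 4) and 2.65 ± 0.432 CPM (SD, n = 6), a log2 fold change of -0.97 (SE 0.207), close to 0.509 of the WT_veh level.

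Myo5b, the Rab11 motor, was the most abundant of the 4 genes. WT_veh mice read 140.02, 96.4, 99.2 and 97.6 CPM, and APP_veh mice ranged from 53.5 to 81.7 CPM with a median of 68.4 CPM. The groups did not overlap, and replicate 1 stood above the other WT_veh mice, which lay within 3 CPM of each other. The log2 fold change was -0.67 (SE 0.163). For Apln, the ligand, WT_veh mice read 18.4, 18.9, 19.6 and 21.0 CPM and APP_veh mice 9.58 to 16.1 CPM with a median of 12.1 CPM, again with no overlap and with a log2 fold change of -0.67 (SE 0.162). Luzp2 read 39.8, 33.9, 32.9 and 32.2 CPM in WT_veh mice and 21.0 to 29.0 CPM, median 22.0 CPM, in APP_veh mice, which did not overlap either, with a log2 fold change of -0.57 (SE 0.146).

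**Figure D1:**
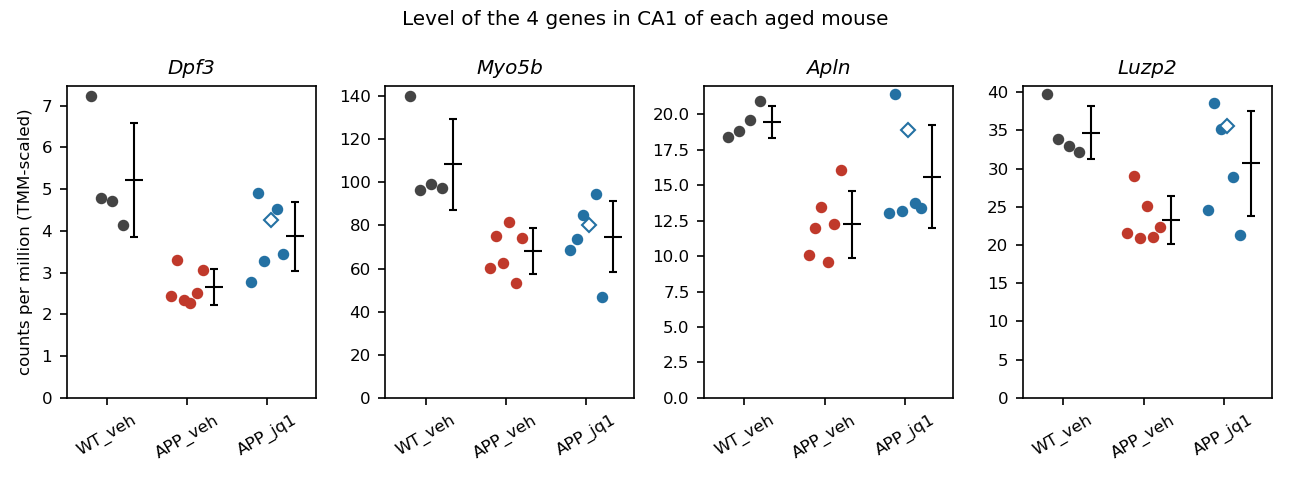
Level of each gene (CPM, TMM-scaled, linear axis from 0) in every aged mouse, with 1 point per mouse, the mean and SD of the group as a bar beside the points, and the library labelled APP_jq1 replicate 4 as an open diamond that is part of the mean. All 6 APP_veh mice sit below all 4 WT_veh mice for each gene, in the contrast whose falls chose the genes. APP_jq1 mice spread over both groups except for Myo5b, where all 6 are below 96.4 CPM.

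WT_veh replicate 1 was the highest of the WT_veh mice for Dpf3, Myo5b and Luzp2 and the lowest for Apln. Without it the log2 fold changes were -0.79 for Dpf3, -0.54 for Myo5b, -0.70 for Apln and -0.51 for Luzp2, and every APP_veh mouse remained below each of the 3 WT_veh mice left. Without WT_veh replicate 4, the library with choroid plexus genes, they were -1.03, -0.73, -0.68 and -0.61 in the same order. The values without these libraries still come from the contrast that chose the genes.

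Falls were few among the genes called in APP_veh mice. At an adjusted p under 0.05 in edgeR's quasi-likelihood fit, 422 genes were higher and 14 were lower, the latter 0.0825% of the genes tested. Dpf3, Myo5b, Apln and Luzp2 had the 2nd, 3rd, 4th and 6th largest fall of the 14, a count that their choice fixed. Calml4 came first at -3.07, but its groups overlapped and its highest value, 5.31 CPM, was in a WT_veh mouse, the level in APP_veh mice being 0.445 CPM or less. Cep83os, a long noncoding RNA, fell between Apln and Luzp2 at -0.66 with groups that did not overlap and is not one of the 4 genes. The next after Luzp2 were Slco1c1, a thyroid hormone transporter, at -0.47, St6gal2, a sialyltransferase, at -0.47, and Cpne8, a copine, at -0.45. Over all genes tested, 348 (2.05%) had every APP_veh mouse below every WT_veh mouse, and 315 (1.86%), called or not, had a larger fitted fall than Luzp2. The number called lower ranged from 1 to 38 when single mice were left out, and was 38 without the library labelled APP_jq1 replicate 4. The 1 was found without WT_veh replicate 1 and was Gpr37, an orphan receptor named here after its value was seen, so that none of the 4 genes was among the calls without that mouse.

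**Figure D2:**
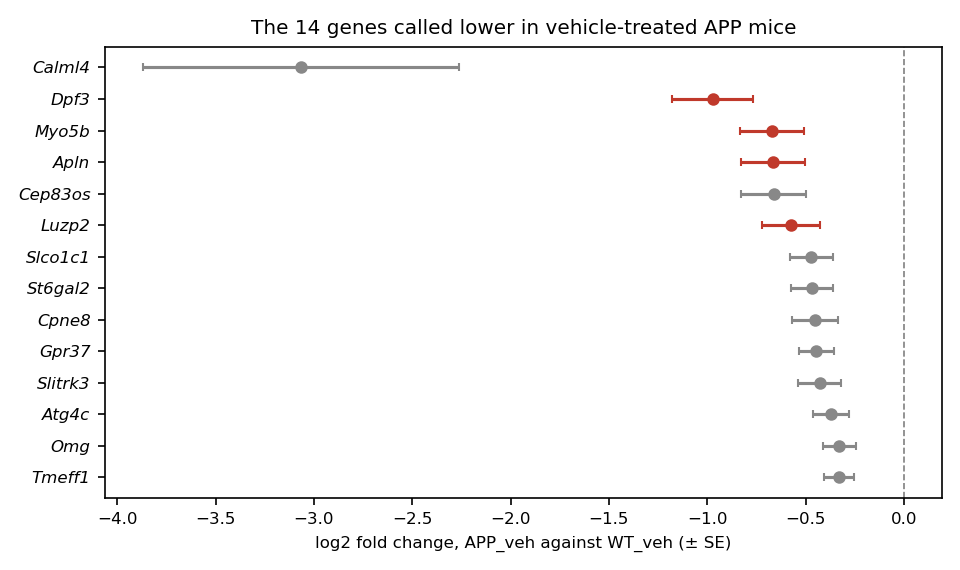
Log2 fold change and SE (horizontal bars) of APP_veh against WT_veh mice for the 14 genes called lower in the main fit, in order. The 4 genes described here are in red and the others in grey. The 4 lie between -0.97 and -0.57, Calml4 stands far to the left with the widest error, and the remaining genes lie at -0.47 or nearer to 0 apart from Cep83os at -0.66.

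JQ1 was then followed in APP mice. None of the 4 genes passed the threshold in APP_jq1 against APP_veh mice, a comparison in which 184 genes were called, 1.08% of those tested, and 73 (0.431%) without the library labelled APP_jq1 replicate 4. The comparison shares the APP_veh mice with the one that chose the genes. Genes chosen for low APP_veh levels lean towards estimates above 0 here, whatever JQ1 did. All 4 estimates were above 0, so their sign alone is not read as a rise with JQ1. Over all genes tested, 50.2% of the estimates were below 0.

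Dpf3 ranged from 2.78 to 4.91 CPM in the 6 APP_jq1 mice, with a median of 3.85 CPM and a mean of 3.87 ± 0.823 CPM (SD). Of these mice, 4 were above every APP_veh mouse and the other 2 lay within the APP_veh range. The log2 fold change was 0.54 (SE 0.190, 95% confidence interval 0.14 to 0.94), or 1.46-fold, with an adjusted p of 0.152 in edgeR's quasi-likelihood test over all genes. Without the library labelled APP_jq1 replicate 4, at 4.26 CPM, it was 0.52 (SE 0.202, adjusted p = 0.269).

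Luzp2 ranged from 21.3 to 38.5 CPM in APP_jq1 mice, with a median of 32.0 CPM. The mice split between values near those of APP_veh (21.3, 24.6 and 28.9 CPM) and values near those of WT_veh (35.1, 35.6 and 38.5 CPM). The log2 fold change was 0.40 (SE 0.133, 95% confidence interval 0.12 to 0.67), or 1.32-fold, with an adjusted p of 0.136 in edgeR. Without the library labelled APP_jq1 replicate 4, itself at 35.6 CPM, it was 0.35 (SE 0.138, adjusted p = 0.267). After a correction of each library for GC content and exonic length, it dropped to 0.17 (SE 0.113, adjusted p = 0.722). Luzp2 had the lowest exonic GC content of the 4 genes, and the correction moved the other 3 estimates to 0.62, 0.15 and 0.38 for Dpf3, Myo5b and Apln.

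Apln ranged from 13.0 to 21.4 CPM in APP_jq1 mice. The lower 4 mice lay between 13.0 and 13.7 CPM, within the APP_veh range, and 2 stood apart at 18.9 and 21.4 CPM, the former in the library labelled APP_jq1 replicate 4. The log2 fold change was 0.35 (SE 0.147, 95% confidence interval 0.04 to 0.66, adjusted p = 0.226 in edgeR) and without that library 0.29 (SE 0.150, 95% confidence interval -0.02 to 0.61, adjusted p = 0.410). Myo5b had the smallest difference. Its APP_jq1 mice ranged from 46.7 to 94.6 CPM with a median of 77.0 CPM, spanning the whole APP_veh range, and the log2 fold change was 0.14 (SE 0.148, 95% confidence interval -0.17 to 0.45, adjusted p = 0.667) or 0.12 (SE 0.158, adjusted p = 0.789) without the library. It was 0.07 without APP_jq1 replicate 5, 0.08 without APP_veh replicate 5 and 0.24 without APP_jq1 replicate 6.

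Against WT_veh mice, the 4 genes in APP_jq1 mice all had estimates below 0 and none passed the threshold, where 349 genes were called (2.06%), or 651 (3.84%) without the library labelled APP_jq1 replicate 4. This comparison shares the WT_veh mice with the one that chose the genes. Genes chosen for high WT_veh levels likewise lean below 0 here, and 49.9% of all genes tested were below 0. Myo5b was nearest to the threshold. All 6 APP_jq1 mice were below all 4 WT_veh mice, and how many of all genes tested separate in this way here was not counted. The means were 74.8 ± 16.4 CPM (SD) and 108.3 ± 21.2 CPM, with a log2 fold change of -0.53 (SE 0.163) and an adjusted p of 0.109 in edgeR. The adjusted p was 0.0922 without the library, with a log2 fold change of -0.56, and the call was made in DESeq2 (adjusted p = 0.0444) and after the GC and length correction (adjusted p = 0.0498), but not without WT_veh replicate 1 (log2 fold change -0.39, adjusted p = 0.233).

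Luzp2 had the estimate nearest to 0, with a log2 fold change of -0.18 (SE 0.147, 95% confidence interval -0.49 to 0.13, adjusted p = 0.662) and 3 of 6 APP_jq1 mice below all WT_veh mice. Dpf3 differed by -0.43 (SE 0.207, adjusted p = 0.360), also with 3 of 6 mice below all WT_veh mice, and Apln by -0.32 (SE 0.162, adjusted p = 0.401), with 4 of 6 below and 1 of 6 above. Without the library labelled APP_jq1 replicate 4 the 3 estimates were -0.23, -0.47 and -0.39 for Luzp2, Dpf3 and Apln, and without WT_veh replicate 1 that of Dpf3 was -0.24 (adjusted p = 0.622). The estimate of Luzp2 was -0.11 without WT_veh replicate 1, -0.09 without APP_jq1 replicate 6 and -0.33 (95% confidence interval -0.59 to -0.07, adjusted p = 0.152) after the GC and length correction.

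**Figure D3:**
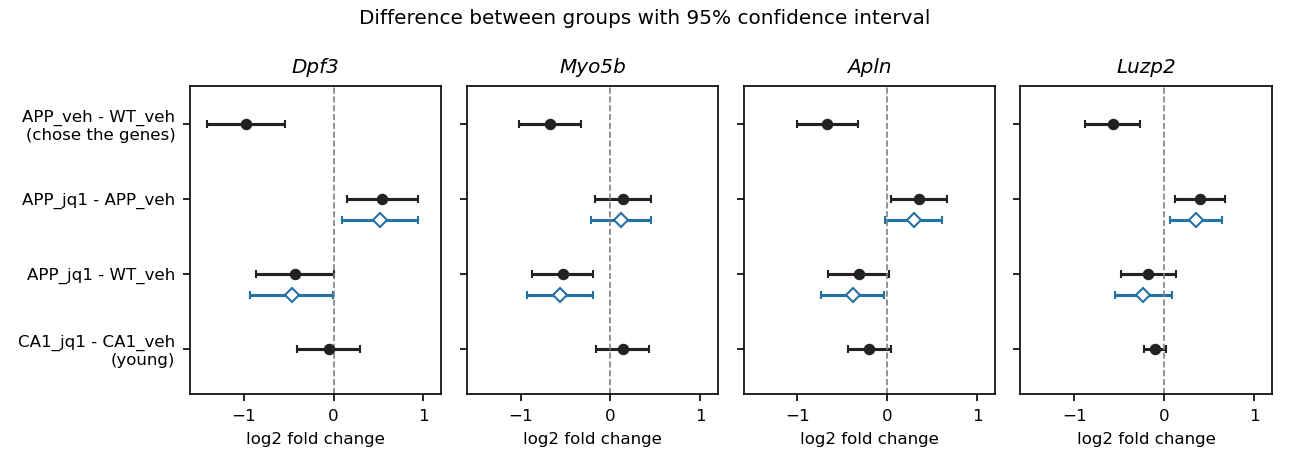
Log2 fold change with its 95% confidence interval for each gene in the 4 comparisons, from edgeR for the aged and limma for the young mice, with open diamonds for the same fit without the library labelled APP_jq1 replicate 4. The top line holds the contrast that chose the genes, and in the bottom line, from young mice, all 4 intervals include 0.

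The young mice had no part in the choice of the genes. JQ1 left none of the 4 genes past the threshold there, in a comparison where 1 of 18420 loci, 0.00543%, was called. That locus was B3galtl, a glucosyltransferase gene named here after its value was seen, with a log2 fold change of -0.34 (limma, adjusted p = 0.0362), and 857 loci had an unadjusted p under 0.05. The smallest p that an exact permutation of 8 against 8 mice allows is 0.0001554.

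Dpf3 ranged from 1.27 to 2.31 FPKM in CA1_veh mice, with a median of 1.37 FPKM, and from 0.910 to 2.25 FPKM in CA1_jq1 mice, with a median of 1.32 FPKM. The CA1_veh values lay within the CA1_jq1 range apart from the highest mouse. On the log2(FPKM + 0.1) scale the difference was -0.05 (SE 0.167, 95% confidence interval -0.41 to 0.30, adjusted p = 0.997 in limma, exact two-sided permutation p = 0.757), and it turned to 0.03 when either CA1_veh replicate 3 or CA1_jq1 replicate 3 was left out. Myo5b ranged from 28.2 to 44.2 FPKM in CA1_veh and from 23.6 to 47.9 FPKM in CA1_jq1 mice, with medians of 35.2 and 39.4 FPKM. The lowest and the 3 highest of the 16 mice were in the JQ1 group, and the difference was 0.14 (SE 0.141, 95% confidence interval -0.16 to 0.43, adjusted p = 0.981, exact permutation p = 0.385), or 0.24 without CA1_jq1 replicate 7.

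Apln ranged from 5.83 to 8.25 FPKM in CA1_veh mice, median 7.26 FPKM, and from 4.01 to 7.38 FPKM in CA1_jq1 mice, median 6.33 FPKM. The difference was -0.20 (SE 0.114, 95% confidence interval -0.44 to 0.04, adjusted p = 0.981, exact permutation p = 0.121), with 7 of 8 CA1_jq1 mice at or below the median of CA1_veh. Without CA1_jq1 replicate 3, the lowest, it was -0.12. Luzp2 had the narrowest interval. It ranged from 33.1 to 40.0 FPKM in CA1_veh and from 30.6 to 38.2 FPKM in CA1_jq1 mice, and the difference was -0.10 (SE 0.0575, 95% confidence interval -0.22 to 0.02, adjusted p = 0.981, exact permutation p = 0.103). In these young mice the intervals hold no rise above 0.30 for Dpf3, 0.43 for Myo5b, 0.04 for Apln and 0.02 for Luzp2. Whether the response differed from that of APP mice was not tested, and age, sex, days of treatment and the way the values were made differ between the experiments as well.

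**Figure D4:**
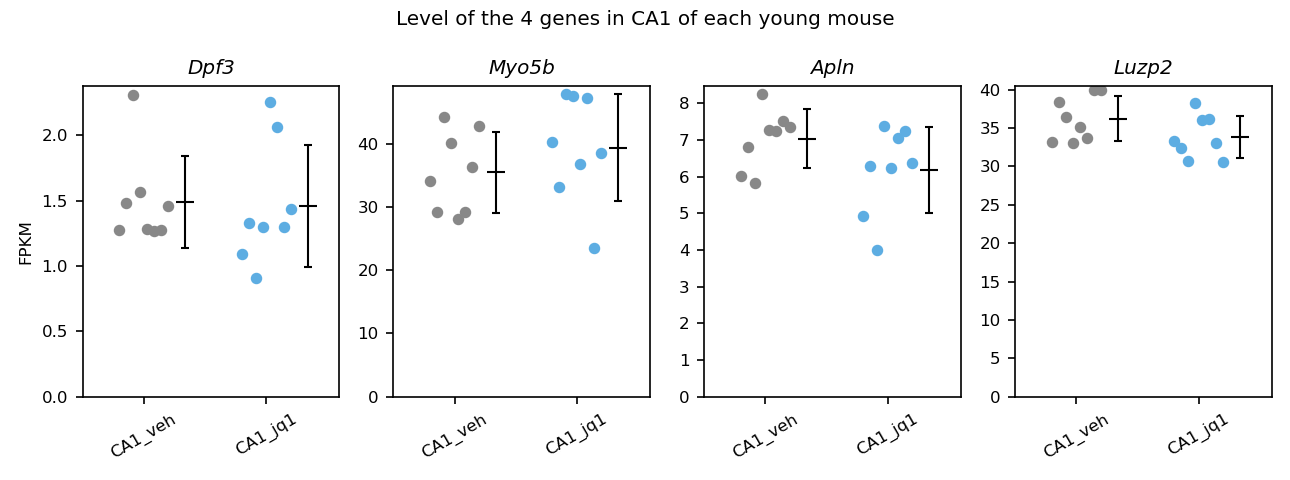
Level of each gene (FPKM, linear axis from 0) in every young mouse, with 1 point per mouse and the mean and SD of the group as a bar beside the points. The CA1_veh and CA1_jq1 mice overlap for all 4 genes, and CA1_veh replicate 3 stands apart for Dpf3 at 2.31 FPKM.

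Per length, the order of the genes was read within each experiment. In WT_veh mice the level was 11.1 CPM per kb of exon for Myo5b (9.87 to 14.3), 6.18 for Apln (5.85 to 6.66), 6.18 for Luzp2 (5.73 to 7.09) and 1.23 for Dpf3 (0.979 to 1.71), where Apln and Luzp2 did not differ beyond their spread. In CA1_veh mice the level was 36.2 ± 2.91 FPKM (SD, n = 8) for Luzp2, 35.5 ± 6.41 FPKM for Myo5b, 7.04 ± 0.800 FPKM for Apln and 1.49 ± 0.350 FPKM for Dpf3, where Luzp2 and Myo5b overlapped. The levels were normalized separately and with different measures of length, so neither they nor the orders are compared between the experiments.

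Markers of other cells moved with the group in aged mice. Summed astrocyte markers (8 genes) ranged from 3711 to 4052 CPM in WT_veh and from 5680 to 8789 CPM in APP_veh mice, where 1 of 8 genes, Gfap, was called higher, as were 2.49% of all genes tested. Microglia markers (8 genes) ranged from 313.5 to 340.4 CPM and from 665.5 to 1177 CPM, where 5 of 8 were called. In APP_jq1 mice the ranges were 4429 to 9366 CPM and 342.8 to 1205 CPM, with the lowest value of both in the library labelled APP_jq1 replicate 4. In bulk tissue, fewer cells of a type and less RNA per cell cannot be told apart. Interneuron markers (8 genes) summed to 1160 to 1319 CPM in WT_veh and 939.6 to 1293 CPM in APP_veh mice, and CA1 pyramidal markers to 837.5 to 1227 and 924.2 to 1144 CPM, with no gene of either list called in that contrast. Their part in the falls of the 4 genes was not tested.

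The share of reads outside annotated exons, a sign of unspliced RNA or of other reads between genes, also differed between mice. It was 16.3% to 18.9% in WT_veh, 15.4% to 24.5% in APP_veh and 16.9% to 26.9% in APP_jq1 mice. The APP_veh mouse with the largest share, replicate 2, had the highest Dpf3 (3.31 CPM) and Luzp2 (29.0 CPM) of its group. The APP_jq1 mouse with the largest share, also replicate 2, had the highest Dpf3 (4.91 CPM), Apln (21.4 CPM) and Luzp2 (38.5 CPM). WT_veh replicate 1, by contrast, had the smallest share of its group and the highest Dpf3, Myo5b and Luzp2. Without APP_jq1 replicate 2, the log2 fold changes of APP_jq1 against APP_veh were 0.46 for Dpf3, 0.24 for Apln and 0.32 for Luzp2, the lowest among all 16 omissions of a mouse. The part of this share in the differences was not tested.

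**Figure D5:**
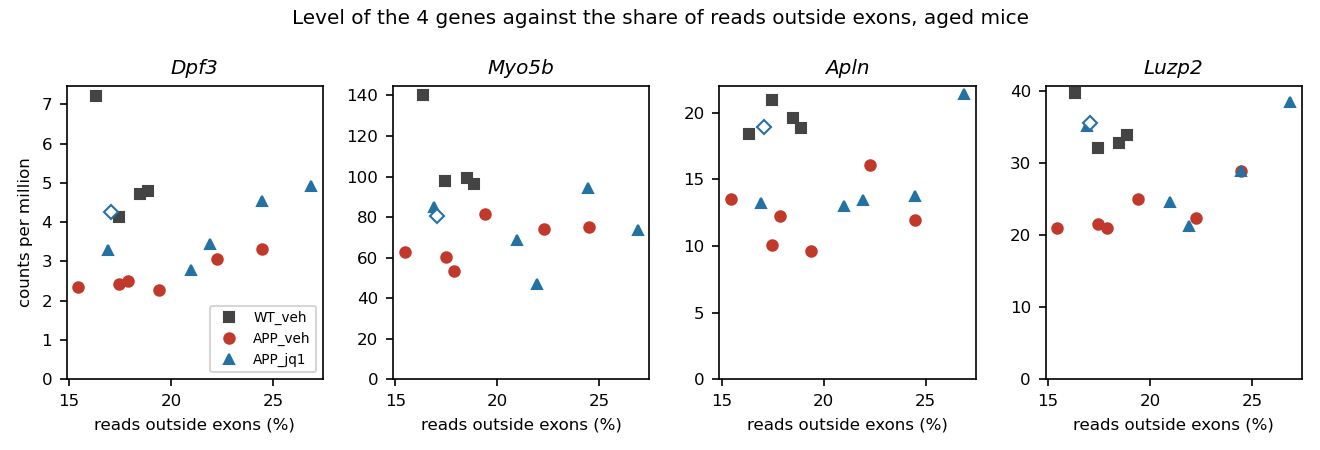
Level of each gene (CPM, linear axis from 0) against the share of reads outside exons (%) in the 16 aged mice, with squares for WT_veh, circles for APP_veh, triangles for APP_jq1 and an open diamond for the library labelled APP_jq1 replicate 4. The WT_veh squares, all at shares of 18.9% or less, lie above the APP_veh circles for all 4 genes. The mouse with the largest share of each APP group, at 24.5% and 26.9%, is the highest of its group for Dpf3 and Luzp2 but not for Myo5b.

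The partners of the 4 genes were read from lists written down with earlier results of these data known. Dpf3, Myo5b and Apln were chosen by the contrast of APP_veh with WT_veh mice, so their own place in it is not read against their partners. Among the 28 other genes of the BAF complex tested, none was called there, and the median log2 fold change of the list of 29 was 0.05, against 0.01 over all genes tested. Its relatives Dpf1 (0.10, SE 0.0972) and Dpf2 (0.11, SE 0.114) had estimates above 0, and the ATPase Smarca4 (0.06, SE 0.0783) and the subunit Smarcd3 (-0.10, SE 0.0903) were near 0. In APP_jq1 against APP_veh mice 1 of 29 was called, where 1.08% of all genes tested were (0.431% without the library labelled APP_jq1 replicate 4). This was Pbrm1, the polybromo subunit of the PBAF form, which rose by a log2 fold change of 0.44 (SE 0.0821, adjusted p = 0.0125 in edgeR), and by 0.44 (adjusted p = 0.0321) without the library labelled APP_jq1 replicate 4. Dpf1 was at -0.25 (adjusted p = 0.152) and Dpf2 at -0.20 (adjusted p = 0.318) there, where Dpf3 was at 0.54. Neither against WT_veh mice nor in the 24 genes tested in young mice was any BAF gene called. Pbrm1 was not matched in the FPKM of the young mice, so it was not tested there. The calls given here for aged mice are those of edgeR. The paper's own analysis also called Gltscr1 of this list, higher in APP_veh than in WT_veh mice and lower with JQ1.

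Of 27 genes tested of myosin V and Rab11 recycling, the 26 other than Myo5b held no call in APP_veh against WT_veh mice. The estimates there were -0.08 (SE 0.113) for Myo5a, the neuronal class V myosin, -0.28 (SE 0.142) for Rab11a, the GTPase that Myo5b binds, -0.22 (SE 0.0751) for the adaptor Rab11fip2 and 0.04 (SE 0.106) for Rab11fip3. In APP_jq1 against APP_veh mice they were 0.23, 0.24, 0.21 and -0.10 in the same order, with adjusted p-values of 0.123 to 0.606, and none of the 27 genes was called. In young mice 21 genes, Gria2 not among them, were tested and none was called. Unlike edgeR here, the paper's own analysis of the aged mice called Gria2 of this list, lower in APP_veh than in WT_veh mice and higher with JQ1.

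The apelin system was nearly empty of its receptor. Aplnr had a mean of 0.279 ± 0.146 CPM in WT_veh, 0.374 ± 0.161 CPM in APP_veh and 0.217 ± 0.157 CPM in APP_jq1 mice and did not pass the filter on low counts, 3 reads being 0.118 to 0.205 CPM. Apela, the other ligand of the receptor, had no read in any WT_veh mouse, and did not pass the filter either. Of the 9 genes tested besides Apln, Prcp, a carboxypeptidase that can shorten apelin, was called in APP_veh against WT_veh mice and was higher, from 7.23 ± 1.71 to 12.4 ± 2.01 CPM (log2 fold change 0.78, SE 0.180, adjusted p = 0.0243 in edgeR). In that contrast 2.49% of all genes tested were called higher. None of the list was called in APP_jq1 mice against either vehicle group or among the 8 genes tested in young mice, except that Prcp was higher in APP_jq1 than in WT_veh mice (log2 fold change 0.72, adjusted p = 0.0322) without the library labelled APP_jq1 replicate 4. Luzp1, which shares with Luzp2 the leucine zipper in its name, read 104.5 ± 10.5 CPM in WT_veh, 97.1 ± 19.4 CPM in APP_veh and 96.0 ± 15.0 CPM in APP_jq1 mice, with adjusted p-values of 0.768 to 0.962 in the 3 comparisons.

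The falls were not shared with the nearest tested genes. Beside Dpf3, Rgs6 (51.7 kb away) and Dcaf4 (32.8 kb) had log2 fold changes of 0.02 and 0.01 in APP_veh against WT_veh mice. Beside Myo5b, Mbd1 (158.2 kb) was at 0.09 and Acaa2 (7.70 kb) at -0.12. Beside Apln, Ocrl (59.3 kb) was at -0.08 and Sash3 (111.6 kb), a lymphocyte adaptor gene, at 0.93 with an adjusted p of 0.166 in edgeR. Beside Luzp2, Svip, 2830 kb away, was at -0.22 and Siglech, a microglial receptor 499.3 kb away, at 1.03 (adjusted p = 0.0260). No other neighbour was called by edgeR in any of the 3 comparisons of aged mice. The paper's own analysis called Svip higher with JQ1 in APP mice, where edgeR gave 0.33 (adjusted p = 0.144). Siglech in APP_jq1 against WT_veh mice had an adjusted p of 0.0516, and of 0.00108 without the library labelled APP_jq1 replicate 4.

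Within the groups, each gene had its own closest companions. After the group means were subtracted, the highest Pearson r over the 16 aged mice, among 16961 other genes, was with Zfp451 (0.892), Braf (0.885) and Kcna1 (0.872) for Dpf3. For Myo5b it was with Lhx9 (0.953), Klhl29 (0.919) and Mcu (0.909), for Apln with Xylt2 (0.858), Cmtr1 (0.818) and AI854703 (0.813), and for Luzp2 with Slitrk2 (0.958), Rsf1 (0.926) and Med1 (0.916). These genes were the highest of many, so their r describes these libraries only, which also share the spread in reads outside exons. Over the 16 young mice, which the ranking did not use, r was 0.63 for Myo5b with Lhx9, 0.63 with Klhl29 and 0.24 with Mcu. It was 0.53, 0.47 and 0.17 for Luzp2 with Slitrk2, Rsf1 and Med1, between 0.20 and 0.31 for Dpf3 and its companions, and 0.46 and 0.28 for Apln with Xylt2 and AI854703.

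Between the 4 genes themselves, the aged mice gave r of 0.71 for Myo5b and Luzp2, 0.61 for Dpf3 and Luzp2, 0.50 for Dpf3 and Myo5b, 0.46 for Dpf3 and Apln, 0.33 for Apln and Luzp2 and 0.03 for Myo5b and Apln (-0.02 without the library labelled APP_jq1 replicate 4). In the young mice, where all 6 pairs were tested by permutation (100000 resamples, two-sided), none passed the threshold. Pearson's r ranged from -0.27 for Myo5b and Apln to 0.38 for Apln and Luzp2, with adjusted p-values from 0.451 to 0.460, and Spearman's rho from -0.08 to 0.33 for the same pairs, with adjusted p-values from 0.709 to 0.769. Leaving out the 2 mice farthest from the median of the first gene moved r between Dpf3 and Apln from 0.32 to 0.70 and left the other 5 between -0.09 and 0.34.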

How the data were processed

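RNA-Seq of CA1 tissue was analysed for 32 of 33 labelled samples (WT_veh replicate 2 is not analysed here). For the aged mice the deposited values are raw counts per gene, which the authors made with htseq from STAR alignments (mm10, no more than 2 mismatches). For the young mice, the deposited values are FPKM from cufflinks/cuffdiff, normalized by the authors to transcript length and depth. The submitters' processing notes also name CASAVA 1.8.2 and TopHat. Sequencing was on a HiSeq2000.

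Counts were scaled by TMM, filtered by filterByExpr and fitted over the 3 aged groups together in edgeR 4.0.16 (quasi-likelihood, robust). FPKM were tested as log2(FPKM + 0.1) in limma 3.58.1 (trend, robust) for loci with FPKM of at least 0.5 in at least 8 mice, so fold changes of low genes are understated there. P-values were adjusted by Benjamini-Hochberg over all genes tested, with a threshold of 0.05, and an exact permutation of the group labels was run for the 4 genes in young mice. Lines with alignment totals in the count files were left out of library sizes. GENCODE M21 gave coordinates, exonic length and GC content, which were known for 98.9% of the genes tested. The 3-read floor of 0.118 to 0.205 CPM covers counting error only, and the intervals cover the spread between mice with counting error in it. The paper states that mice were caged singly before the behavioural tests, and nothing states separate litters. The scripts were checked on simulated data. The software was R 4.3.3, DESeq2 1.42.0, Python 3.11.15, scipy 1.17.1 and matplotlib 3.10.9.

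The 4 genes and all lists were chosen with earlier results of these data known. Named were the 4 genes, fixed relatives and partners, list genes past a threshold in the lists of partners, the 3 genes most correlated with each, the nearest tested genes on each side and the 3 genes that follow in the order of falls. Alternatives were DESeq2, RLE size factors, no filter or at least 10 counts in every sample, only the groups compared, the replicate number as a block, a spline correction (5 degrees of freedom) for GC content and length, other pseudocounts and filters, and leaving out each mouse. The fits without 2 libraries, and the correction without 1 library, were chosen after seeing the data. Values of some genes are not reported here.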

Additional observations from a re-analysis of the deposited data

Results flagged for a closer look

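Across the 20 combinations of gene and group, 2 mice stood farther from their group than Dixon's test at the 95% level allows, and chance alone flags about 1 in 20 groups. Myo5b read 140.02 CPM in WT_veh replicate 1, where the other 3 WT_veh mice lay between 96.4 and 99.2 CPM. Dpf3 read 2.31 FPKM in CA1_veh replicate 3, where the other 7 CA1_veh mice lay between 1.27 and 1.57 FPKM. WT_veh replicate 1 also had the highest sum of CA3 pyramidal markers of the aged mice, 292 CPM. The part of those cells in the Myo5b value was not tested. CA1_veh replicate 3 had the highest sum of dentate granule markers of its group (68.1 FPKM, group median 49.7 FPKM). It also had the lowest sum of oligodendrocyte markers (1137 FPKM, group median 1906 FPKM). Their part in the Dpf3 value was not tested either.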

How the results depend on the processing

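The falls in APP_veh mice kept their direction for all 4 genes under every alternative run, and the JQ1 estimates of the 4 genes in APP mice kept theirs too, with none past the threshold against APP_veh. The number of genes called moved more. For JQ1 against vehicle in APP mice (184 genes) it was 749 in DESeq2, 37 with the correction for GC content and length, 35 with that correction and without the library labelled APP_jq1 replicate 4, 57 without that library and WT_veh replicate 4, and 65 to 446 without single mice (lowest without APP_jq1 replicate 2, highest without WT_veh replicate 1). For JQ1-treated APP against WT mice (349 genes) it was 790 in DESeq2, 227 with only those groups in the fit, 1059 with the correction and without the library, and 11 to 651 without single mice (lowest without WT_veh replicate 5, highest without the library). The number called lower in APP_veh mice (14) was 112 in DESeq2, 84 with the correction, 23 with RLE size factors, 62 with only those groups, 24 without both libraries, and 183 with the correction and without the library. Myo5b in JQ1-treated APP against WT mice passed in DESeq2 (-0.54), with the correction (-0.61) and with the correction and without the library (-0.65). The causes were not tested.

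Replicate numbers are shared between groups, and nothing in the labels pairs the mice. Deviations of same-numbered APP_veh and APP_jq1 mice had a mean r of 0.12 (3 of 6 pairs over 0.1, lowest -0.11) against -0.02 for different numbers, and those of young mice 0.03 (1 of 8 over 0.1, lowest -0.07), so the number was not taken as a pairing. With the number as a replicate block, 87 genes were called for JQ1 in APP mice (32 with the correction too), 21 for JQ1-treated APP against WT mice (41), 1 lower in APP_veh mice (2) and 0 in young mice.

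In young mice, the number called (1) was 0 without the filter and 0 to 2 without single mice, by limma. It was 2 without CA1_veh replicate 6. Dpf3 ranged from -0.15 to 0.034 without single mice and turned positive without CA1_veh replicate 3 (0.034) or CA1_jq1 replicate 3 (0.028). The r of Dpf3 and Apln ranged from -0.016 (without CA1_jq1 replicate 3) to 0.58 (without CA1_veh replicate 3). Dpf3 could not be given with an FPKM of at least 1 in every mouse, being at 0.910 in 1 mouse. Depth limits Aplnr and Apela, and Dpf3 rests on 98 to 145 reads in each WT_veh mouse.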
